A study of Mus musculus with 6 samples.

Results

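The killer lectin-like receptors are C-type lectin-like proteins of natural killer (NK) cells that activated CD8+ T cells also carry. The genes described here are 7 receptor genes (Klrd1, Klrc1, Klrc2, Klrk1, Klrg1, Klre1 and Klrb1c) and 2 adaptor genes (Hcst and Tyrobp). They were chosen by gene symbol, and all 9 were found among the 47729 genes listed in each library. RNA was sequenced from activated CD8+ T cells of mouse spleen in 3 libraries treated for 24 h with 2 µM blebbistatin, which blocks the motor activity of myosin II, and in 3 vehicle libraries. The labels give no strain, age, sex or activation method, and they do not say what the vehicle was or whether replicates are separate animals or cultures. P-values therefore cover only the variation among these 6 libraries, which may be technical. The blebbistatin libraries did not lie close together: in log2 levels across genes, blebbistatin 1 had the lowest Pearson correlations with the vehicle libraries (0.9776 to 0.9791), and blebbistatin 2 was nearer to the vehicle libraries (0.9877 to 0.9883) than to blebbistatin 1 (0.9825).

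These receptors bind MHC class I-like and lectin-like proteins on other cells. CD94, encoded by Klrd1, pairs with NKG2A (Klrc1), which inhibits through motifs in its own tail, or with NKG2C (Klrc2), which activates through the adaptor DAP12 (Tyrobp). The ligand of these pairs in the mouse is Qa-1, encoded by H2-T23. NKG2D (Klrk1) is an activating and costimulatory receptor that in CD8+ T cells signals mainly through the adaptor DAP10 (Hcst). KLRG1 marks terminal effector T cells and binds cadherins, KLRE1 pairs with KLRI1 or KLRI2, and NKR-P1C (Klrb1c) is the NK1.1 antigen of NK cells.

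Klrd1 and Klrk1 were the main receptor transcripts of these cells, and the values for blebbistatin stood above those for vehicle in several members without any member passing the test. TPM, a measure of transcript number relative to all transcripts and corrected for length, allows the levels of different genes to be compared. Over the 6 libraries Klrd1 averaged 53.0 TPM, Klrk1 33.6 TPM, Hcst 24.7 TPM and Klrc1 5.70 TPM. Lower still were Klrc2 at 1.89 TPM, Tyrobp at 1.85 TPM, Klre1 at 1.32 TPM, Klrb1c at 0.423 TPM and Klrg1 at 0.0956 TPM. Neighbours in this order held apart in all 6 libraries except Klrc2 and Tyrobp, and Tyrobp and Klre1, which kept their order in 4 libraries each. The ranges of those neighbours overlapped, so their order is not set by these data.

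The test took in 13372 genes whose mean reached 1 TPM, and 7 members were among them. Klrb1c and Klrg1 fell below that level and were not tested. By limma with Benjamini-Hochberg adjustment, 0 of the 7 tested members passed at 0.05, beside 1.82% of all tested genes. At an unadjusted p under 0.05 there were 3 members, Klrd1, Tyrobp and Klrc1, beside 22.9% of all tested genes. All 7 log2 fold changes of blebbistatin over vehicle were above 0, as were 55.1% of all tested genes. The median log2 fold change was 0.28 for the 7 members and 0.03 for all tested genes. All were computed from log2(TPM + 1), so that changes of weakly expressed genes are understated. In a bulk library, more cells that carry a transcript and more of that transcript per cell cannot be told apart.

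**Figure D1:**
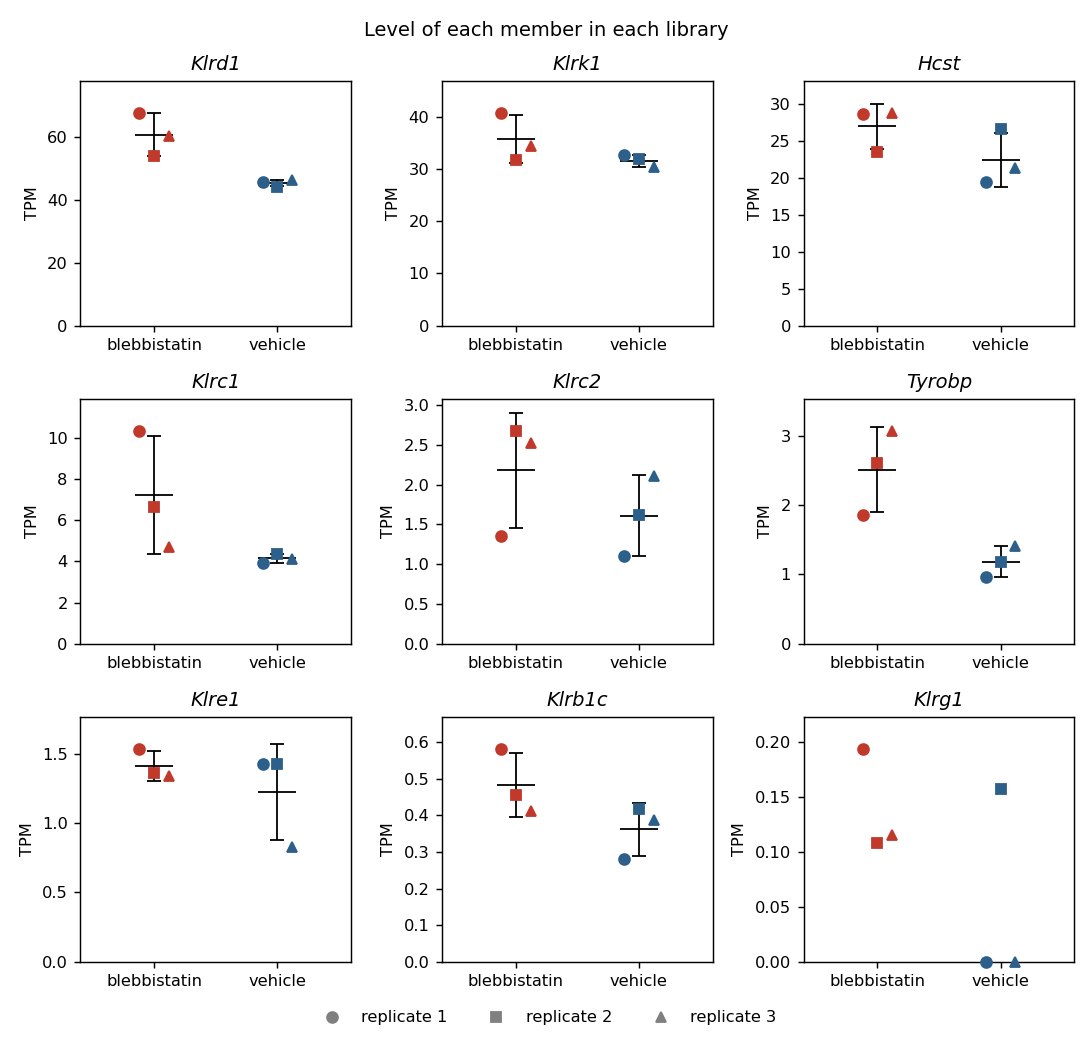
TPM of each member in each library, with blebbistatin left of vehicle in every panel and the vertical axes starting at 0. Bars give mean ± SD (n = 3 each), except for Klrg1, which is listed at 0 in 2 vehicle libraries. The blebbistatin libraries lie wholly above the vehicle libraries for Klrd1, Klrc1 and Tyrobp.

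CD94 had the highest level of the receptors. Klrd1 stood at 67.7, 53.9 and 60.5 TPM in blebbistatin libraries 1, 2 and 3, against 45.6, 44.2 and 46.2 TPM in vehicle libraries 1, 2 and 3. The groups did not overlap, and the vehicle libraries lay close together while the blebbistatin libraries spread more widely. Means were 60.7 ± 6.88 TPM with blebbistatin and 45.3 ± 1.04 TPM with vehicle (SD, n = 3 each). The log2 fold change was 0.41 (SE 0.09, 95% confidence interval 0.20 to 0.61), and its adjusted p of 0.069 by limma with Benjamini-Hochberg missed the threshold. Without blebbistatin 2 the value was 0.49 with an adjusted p of 0.021, beside 8.15% of all tested genes called in that fit, and among 20 alternatives Klrd1 passed in this one alone. Without blebbistatin 1, its highest library, the log2 fold change was 0.33. Over all 20 the log2 fold change lay between 0.23, after adjustment for transcript length and GC, and 0.49, with an adjusted p of at most 0.21 by limma. Klrd1 rested on 334 to 519 fragments a library, as inferred from the deposited coverage. Klrd1 lies at chr6:129591782-129598775 on the plus strand of GRCm38 and is protein-coding. Absence of overlap was itself common, since 31.0% of tested genes had groups that did not overlap, 18.0% in the upward and 13.0% in the downward direction.

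The partners of CD94 were far less abundant than CD94. Klrc1, the inhibitory partner, stood at 10.4, 6.66 and 4.70 TPM in blebbistatin libraries 1, 2 and 3, against 3.95, 4.38 and 4.14 TPM in the vehicle libraries. All blebbistatin values were above all vehicle values, but blebbistatin 3 lay only just above the highest vehicle library, and blebbistatin 1 was the highest by a wide margin. Means were 7.24 ± 2.87 TPM with blebbistatin and 4.16 ± 0.217 TPM with vehicle, a log2 fold change of 0.62 (SE 0.23, limma adjusted p = 0.18). Without blebbistatin 1 the log2 fold change was 0.36, and the gene missed the threshold in all 20 alternatives. Klrc2, the activating partner, stood at 1.35, 2.67 and 2.52 TPM with blebbistatin, against 1.10, 1.61 and 2.11 TPM with vehicle. Those groups overlapped, and the 95% confidence interval of the log2 fold change of 0.28 ran from -0.26 to 0.81. Blebbistatin 1 held the most Klrc1 and the least Klrc2 of the treated libraries.

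The ratio of Klrc1 to Klrd1 was 0.153, 0.124 and 0.0777 in the blebbistatin libraries, against 0.0867, 0.0992 and 0.0896 in the vehicle libraries. Those ranges overlapped, with blebbistatin 3 below every vehicle library (exact permutation test, two-sided p = 0.40, where the smallest p that 3 against 3 allows is 0.10). The ratio of Klrc1 to Klrc2 was 7.66, 2.49 and 1.87 with blebbistatin and 3.59, 2.72 and 1.96 with vehicle (exact permutation p = 0.90). Klrc1 exceeded Klrc2 in every library. After adjustment over the 4 ratios computed, all of these p-values lay between 0.53 and 0.90.

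Klrc1 and Klrc2 share part of their sequence, which may bear on their values. Of the 100-base stretches in annotated Klrc1 transcripts, 14.6% occur unchanged in Klrc2, and 7.09% of those of Klrc2 occur in Klrc1 or Klrc3. Of those of Klrb1c, 10.8% occur in another gene, mainly the overlapping gene Gm44511. The other members shared no such stretch with another annotated gene. Klrc1 lies at chr6:129666015-129678973 and Klrc2 at chr6:129647496-129660689 of GRCm38, both on the minus strand and both protein-coding. The longest run that their coding sequences have in common is 100 bases, at the 3′ end. The last 110 coding bases of each are printed because they show how little separates the genes there. They are bases 623 to 732 of the Klrc1 coding sequence (chr6:129674862-129674971) and 605 to 714 of that of Klrc2 (chr6:129656374-129656483), from GENCODE transcripts of GRCm38 in the sense of the mRNA, with differing bases in capitals.
Klrc1: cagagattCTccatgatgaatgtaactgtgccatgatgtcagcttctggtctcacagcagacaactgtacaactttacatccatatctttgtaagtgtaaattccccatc
Klrc2: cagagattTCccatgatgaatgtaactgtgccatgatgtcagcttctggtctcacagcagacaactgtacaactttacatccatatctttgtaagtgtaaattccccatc
Sequence within the last 100 of these bases cannot tell the genes apart. The printed sequences differ at 2 of 110 positions. A fragment, read below as 300 aligned bases, is longer than 100 bases, so the shares of 100-base stretches are not shares of fragments.

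NKG2D came next in level among the receptors. Klrk1 stood at 40.7, 31.8 and 34.5 TPM in the blebbistatin libraries, against 32.6, 31.8 and 30.3 TPM in the vehicle libraries. The groups overlapped, with blebbistatin 1 and 3 above the vehicle libraries and blebbistatin 2 among them. Its fold change was 0.16 on the log2 scale (SE 0.10, 95% confidence interval -0.06 to 0.39, adjusted p = 0.35 by limma). It was 0.07 without blebbistatin 1, and it changed sign to -0.05 when values were adjusted for the length and GC of transcripts. Klrk1 had 401 to 539 fragments a library and lies at chr6:129610323-129623864 on the minus strand of GRCm38.

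Hcst, the DAP10 adaptor of NKG2D, stood at 28.6, 23.4 and 28.7 TPM with blebbistatin, against 19.4, 26.5 and 21.3 TPM with vehicle. The groups overlapped because vehicle 2 was above blebbistatin 2. Means were 26.9 ± 3.05 TPM with blebbistatin and 22.4 ± 3.69 TPM with vehicle (SD, n = 3 each), with a log2 fold change of 0.26 (SE 0.13, limma adjusted p = 0.28). The ratio of Klrk1 to Hcst averaged 1.33 ± 0.115 with blebbistatin and 1.44 ± 0.240 with vehicle (SD, n = 3 each, exact two-sided permutation p = 0.40). Which of the pair had the higher level depended on the measure: per base of merged exon, described below, Hcst stood at 16.2 with blebbistatin and 13.5 with vehicle, above Klrk1 at 7.25 with blebbistatin and 6.20 with vehicle.

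Tyrobp, the DAP12 adaptor, had a log2 fold change close to that of Klrc1. It stood at 1.86, 2.60 and 3.07 TPM in the blebbistatin libraries, against 0.966, 1.18 and 1.41 TPM in the vehicle libraries. All blebbistatin values were above all vehicle values, and the means of 2.51 ± 0.612 TPM with blebbistatin and 1.19 ± 0.222 TPM with vehicle (SD, n = 3 each) had a ratio of 2.12. The log2 fold change was 0.67 (SE 0.17, limma adjusted p = 0.10), and Tyrobp missed the threshold in each of its 18 alternatives, with an adjusted p of 0.057 at the lowest. At this low level the fold change depended on the pseudocount: it was 1.01 with a pseudocount of 0.1 and 0.28 with a pseudocount of 5. With a pseudocount of 5 and without blebbistatin 3 it was below that of Klrc1 (0.28 against 0.39, and 0.56 against 0.86). The values rested on only 5 to 16 fragments a library, so counting error is large. Tyrobp transcript was 0.0944 ± 0.0256 of that of Hcst with blebbistatin and 0.0535 ± 0.0114 with vehicle (SD, n = 3 each, exact permutation p = 0.20). Tyrobp lies at chr7:30413760-30417585 on the plus strand and Hcst at chr7:30417712-30419854 on the minus strand of GRCm38, next to each other with no exon in common.

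Myeloid and NK cells also express Tyrobp. The 16 myeloid markers, 17 gene entries in the files, had 4 tested, of which 0 passed. Their summed level was 162 to 183 TPM with blebbistatin and 159 to 166 TPM with vehicle, most of it from Ctss and Cst3, which other cells also express. Of the 17 entries 12 were below 1 TPM in all libraries, and Csf1r, the receptor of macrophage growth factor, was at most 0.0231 TPM. Lyz2, the lysozyme of myeloid cells, stood at 0.507, 0.750 and 1.58 TPM with blebbistatin and 0.446, 0.690 and 0.638 TPM with vehicle. Its order over the blebbistatin libraries was that of Tyrobp, while the groups overlapped. None of the 4 tested markers had that order, and Cd68 had the reverse (9.965, 9.125 and 8.667 TPM in blebbistatin libraries 1, 2 and 3). Among the untested markers, Csf1r and both entries of Itgam also had that order, while Mpeg1, Itgax and Flt3 had the reverse. Mpeg1 and Cybb had all blebbistatin values above vehicle, and the other untested markers overlapped between groups. The 4 tested markers were mixed and 0 passed by limma. Cd68 (log2 fold change 0.53, adjusted p = 0.084) and Ctss (0.27, adjusted p = 0.11) had all blebbistatin values above vehicle, while Cst3 (-0.24, adjusted p = 0.32) and Aif1 (0.32, adjusted p = 0.54) overlapped between groups. The part of such cells in the Tyrobp values was not tested.

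The remaining receptors were near the limit of measurement. Klre1 stood at 1.53, 1.36 and 1.34 TPM with blebbistatin, against 1.43, 1.43 and 0.826 TPM with vehicle. The groups overlapped, only vehicle 3 stood apart, and the log2 fold change was 0.13 (SE 0.17, 95% confidence interval -0.26 to 0.51, adjusted p = 0.67 by limma). It was -0.01 without vehicle 3. Klrb1c stood at 0.581, 0.456 and 0.413 TPM with blebbistatin and 0.280, 0.418 and 0.387 TPM with vehicle, on 6 to 12 fragments a library. Those groups overlapped, and 13.9% of its exon bases overlap Gm44511 on the same strand. Klrg1 was listed at 0.194, 0.108 and 0.115 TPM with blebbistatin, against 0, 0.157 and 0 TPM with vehicle. With 0 to 2 fragments a library, no difference in Klrg1 was detectable at this depth.

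**Figure D2:**
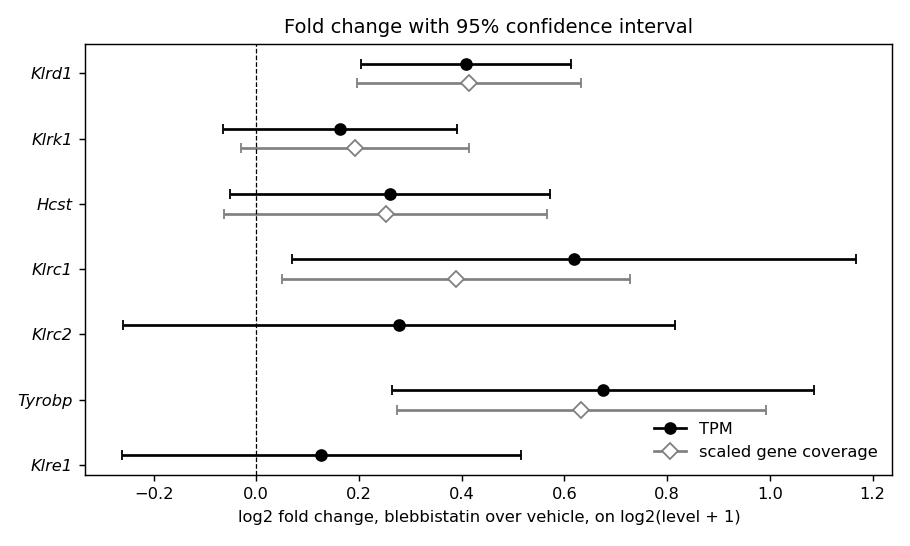
Log2 fold change of blebbistatin over vehicle on the log2(TPM + 1) scale for the 7 tested members, with 95% confidence intervals, beside the same test on scaled coverage where it could be made. Every estimate lies above 0, and the intervals of Klrd1, Klrc1 and Tyrobp leave out 0, though no adjusted p passed 0.05.

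The deposited coverage gave a second view of the same reads that does not depend on how they were divided among the transcripts of a gene. TPM adds up estimates for each annotated transcript, while coverage is the mean read depth over the merged exons. Scaled coverage is that depth multiplied by 1 factor per library, so that genes with a single transcript keep about their TPM. For Klrc1 it was 5.66, 4.15 and 3.71 with blebbistatin, against 2.90, 3.44 and 3.16 with vehicle. The groups still did not overlap, and the spread among the blebbistatin libraries was smaller than in TPM. The log2 fold change of Klrc1 was 0.39 in scaled coverage (SE 0.14, limma adjusted p = 0.17), against 0.62 in TPM. Coverage per FPKM of Klrc1 was 3.20, 3.71 and 4.62 with blebbistatin and 4.07, 4.49 and 4.56 with vehicle, a quotient that moves with the division of reads among transcripts.

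Klrc2 had scaled coverage of 0.643, 0.858 and 0.727 with blebbistatin, against 0.546, 0.560 and 0.586 with vehicle. These groups did not overlap, unlike in TPM. Klrk1 likewise had 8.22, 6.50 and 7.04 with blebbistatin and 6.42, 6.19 and 5.98 with vehicle. In scaled coverage 6 of the 7 tested members had blebbistatin wholly above vehicle, all but Hcst, beside 19.5% of genes tested, or 33.1% in either direction. This measure was added after the data were seen. Klrd1 had a log2 fold change of 0.41 (adjusted p = 0.076 by limma) and Tyrobp 0.63 (adjusted p = 0.084 by limma) in scaled coverage, so neither passed. Klrc2 and Klre1 fell below the minimum level of 1 in this measure and were not tested there.

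**Figure D3:**
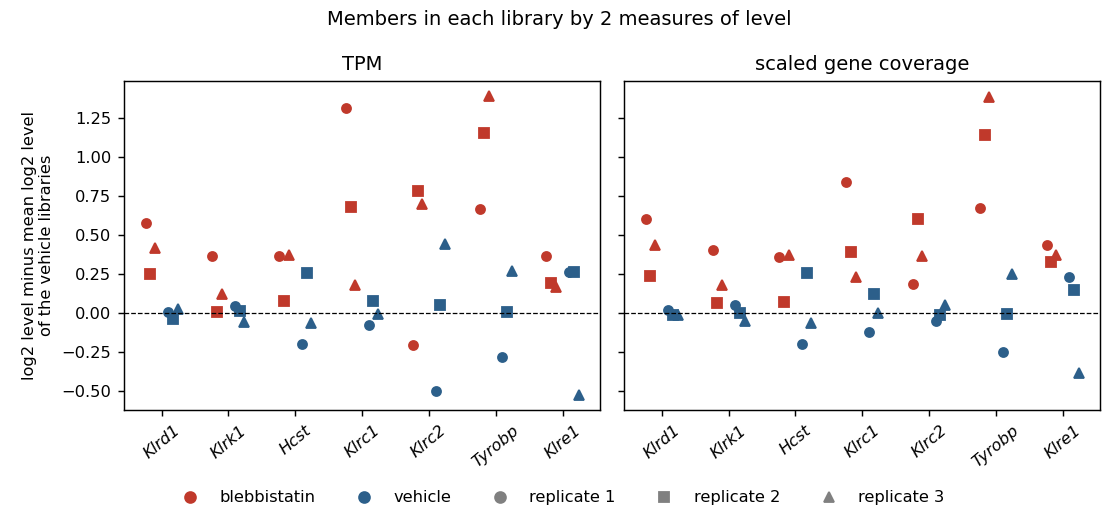
Log2 level of the 7 tested members in each library minus the mean log2 level of the vehicle libraries, without a pseudocount, in TPM (left) and in scaled coverage (right). Colour marks blebbistatin or vehicle and shape the replicate number. Klrc1 and Klrc2 spread more among the blebbistatin libraries in TPM than in scaled coverage.

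Sequence upstream of the receptor genes was examined for short cores bound by factor families known in T and NK cells. Upstream windows of 250 bases from RefSeq (GRCm38.p6) were on hand for 6 members, in 8 windows. The RUNX core TGTGGT, on either strand, occurred in 5 of these members, and it occurs in 14.0% of 32851 windows of all genes. The ETS core GGAAGT occurred in 2 members, Hcst and Klrb1c, and occurs in 19.7% of windows. The T-box core AGGTGT, found in 11.8% of windows, and the AP-1 site TGANTCA, found in 6.75%, occurred in 0 members. A match describes letters and does not show binding, and a gene with several windows has more chances of a match. The windows of the 3 NKG2 genes are printed in the direction of transcription with RUNX cores in capitals, for Klrk1 (chr6:129623865-129624114), Klrc1 (chr6:129678974-129679223) and Klrc2 (chr6:129660557-129660806), all on the minus strand.
Klrk1: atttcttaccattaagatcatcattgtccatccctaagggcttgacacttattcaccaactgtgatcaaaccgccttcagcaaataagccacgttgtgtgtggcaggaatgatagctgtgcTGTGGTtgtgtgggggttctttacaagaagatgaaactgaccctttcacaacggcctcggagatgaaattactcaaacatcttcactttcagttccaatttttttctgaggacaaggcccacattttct
Klrc1: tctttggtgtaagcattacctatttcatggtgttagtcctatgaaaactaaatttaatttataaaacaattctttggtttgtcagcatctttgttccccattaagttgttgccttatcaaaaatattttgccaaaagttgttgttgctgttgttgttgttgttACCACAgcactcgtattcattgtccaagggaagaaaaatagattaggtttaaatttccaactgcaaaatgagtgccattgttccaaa
Klrc2: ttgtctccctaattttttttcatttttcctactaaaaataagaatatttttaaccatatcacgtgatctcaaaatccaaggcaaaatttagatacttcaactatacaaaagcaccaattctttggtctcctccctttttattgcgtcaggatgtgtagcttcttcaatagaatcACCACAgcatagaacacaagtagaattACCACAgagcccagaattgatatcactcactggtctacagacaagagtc
The core nearest the RefSeq start begins 129 bases before it in Klrk1 and 87 bases before it in Klrc1. Klrc2 has a pair of starts in that table, and the nearest core begins 49 bases before the start of the printed window and 9 bases before the other. The Klrc2 cores lie inside the gene as annotated by GENCODE, whose start is farther upstream. The same annotation starts Klre1 and Klrb1c upstream of their windows, so those windows lie inside the annotated gene.

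Most other genes of the family were below the level of the test. Of 24 further Klr genes 22 were in the files and 3 reached the minimum level, with 0 passing. The highest was Klra7, a Ly49 receptor, at 4.11 ± 0.298 TPM with blebbistatin and 3.33 ± 0.501 TPM with vehicle (SD, n = 3 each, adjusted p = 0.29 by limma). Klrc3, chosen after its values were seen because it shares sequence with Klrc2, stood at 0.250, 0.343 and 1.33 TPM with blebbistatin and 0.757, 0.538 and 0.602 TPM with vehicle.

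Ligands of the receptors were measured in the same cells. Of 19 ligand genes 15 were in the files, 4 were tested and 0 passed, with a median log2 fold change of 0.18. The 4 were H2-T23, Ulbp1, Clec2d and Clec2i. Ulbp1 had 72.5 ± 6.79 TPM with blebbistatin and 62.4 ± 1.26 TPM with vehicle (SD, n = 3 each, adjusted p = 0.17 by limma). The groups of Clec2i overlapped (adjusted p = 0.49 by limma). H2-T23, which encodes the Qa-1 ligand of CD94 with NKG2A or NKG2C, stood at 140, 183 and 167 TPM with blebbistatin, against 177, 169 and 168 TPM with vehicle. Blebbistatin 1, the library with the most Klrc1, had the least H2-T23, while blebbistatin 2, next in Klrc1, had the most of all libraries. The groups overlapped (adjusted p = 0.65 by limma). Clec2d, a ligand of an NKR-P1 receptor, chosen after its values were seen, had 43.1 ± 5.72 TPM with blebbistatin and 31.5 ± 0.237 TPM with vehicle (SD, n = 3 each, log2 fold change 0.43, adjusted p = 0.080 by limma).

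Downstream of the adaptors, 1 of 24 tested signalling genes of 25 rose and 0 fell, beside 1.40% and 0.426% of all tested genes. Vav3, a guanine nucleotide exchange factor, stood at 11.5 ± 0.497 TPM with blebbistatin and 8.16 ± 0.411 TPM with vehicle (SD, n = 3 each, log2 fold change 0.45, SE 0.08, limma adjusted p = 0.049). Syk, a kinase recruited by DAP12, stood at 3.30, 2.38 and 2.30 TPM with blebbistatin, against 0.994, 1.301 and 1.23 TPM with vehicle. All blebbistatin values were above all vehicle values, and the log2 fold change of 0.74 missed the threshold (SE 0.16, limma adjusted p = 0.067). Zap70, the related kinase of the T cell receptor, stood at 122, 193 and 163 TPM with blebbistatin and 195, 192 and 196 TPM with vehicle (adjusted p = 0.26 by limma). Those groups overlapped only because of blebbistatin 2.

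Among 17 tested adaptors and receptors of related function, Crtam alone rose and 0 fell, beside the same 1.40% and 0.426% of all tested genes. Crtam, a receptor of activated CD8+ T cells, stood at 16.8 ± 0.509 TPM with blebbistatin and 11.6 ± 0.0594 TPM with vehicle (SD, n = 3 each, log2 fold change 0.50, adjusted p = 0.027 by limma). Fcer1g, another adaptor with an ITAM, was close in both groups at 8.90 ± 0.299 TPM with blebbistatin and 8.80 ± 0.132 TPM with vehicle (SD, n = 3 each, adjusted p = 0.94 by limma).

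Transcription factors and cytokine signalling genes that bear on expression of these receptors gave 3 rises and 1 fall among 28 tested, beside 1.40% higher and 0.426% lower of all tested genes. Tcf7, the TCF-1 factor of naive and memory T cells, stood at 265 ± 8.53 TPM with blebbistatin and 186 ± 5.92 TPM with vehicle (SD, n = 3 each, log2 fold change 0.51, adjusted p = 0.016 by limma). Zeb2, a factor of terminal effector cells, rose by 0.93 on the log2 scale (adjusted p = 0.039 by limma). Its level was near the 1 TPM minimum of the test, at 2.14 ± 0.331 TPM with blebbistatin and 0.647 ± 0.120 TPM with vehicle. Stat4, which transmits interleukin-12 signals, rose by 0.45 (adjusted p = 0.041 by limma), and 26.7% of its exon bases overlap Gm28177. Zfp683, the factor Hobit of resident lymphocytes, fell by 0.57 (adjusted p = 0.039 by limma). The T-box factors did not pass: Eomes stood at 25.0 ± 1.45 TPM with blebbistatin and 31.5 ± 2.06 TPM with vehicle (SD, n = 3 each, log2 fold change -0.33, adjusted p = 0.088 by limma), and Tbx21 had an adjusted p of 0.42.

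**Figure D4:**
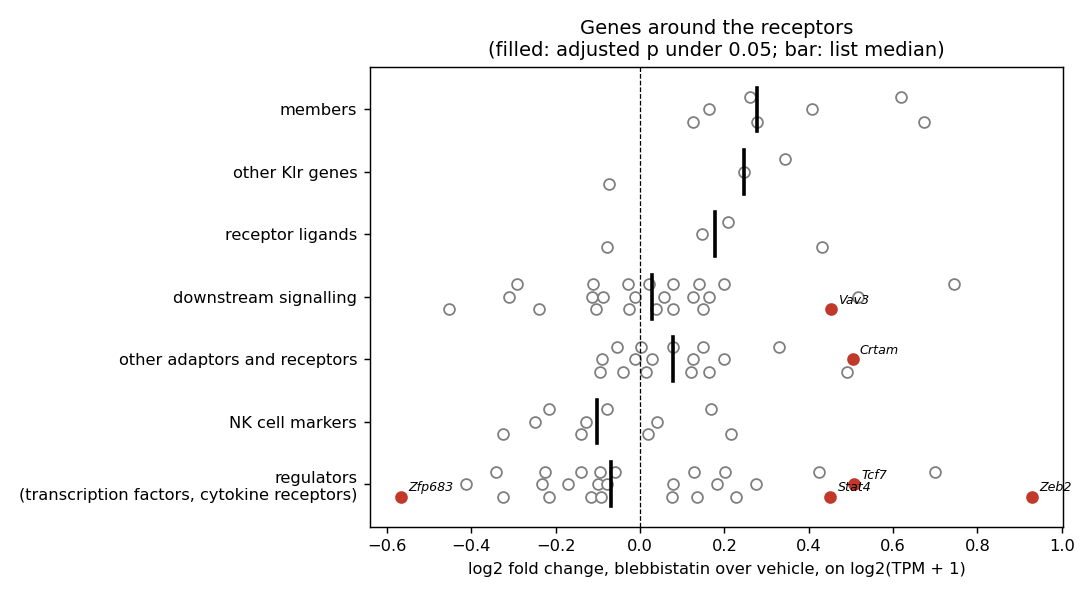
Log2 fold change of blebbistatin over vehicle for the tested genes of each list around the receptors. Filled points mark an adjusted p under 0.05 and bars the median of each list, which is 0.28 for the members.

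Of 15 markers of NK cells, 10 were tested and 0 passed. Their summed level was 1658 to 1718 TPM with blebbistatin and 1816 to 1831 TPM with vehicle, most of it from Il2rb and Nkg7, which activated CD8+ T cells also express. Il2rb, a chain of the receptors for interleukins 2 and 15, stood at 792 ± 22.0 TPM with blebbistatin and 919 ± 4.44 TPM with vehicle (SD, n = 3 each, adjusted p = 0.058 by limma). Of 8 markers that define NK cells, 5 were below 1 TPM in all libraries. Their sum was 123, 99.7 and 107.5 TPM in blebbistatin libraries 1, 2 and 3, and 126 to 133 TPM with vehicle, nearly all of it Gzma, a granzyme that effector CD8+ T cells also express. Among the blebbistatin libraries this sum had the order of Klrd1, which was also that of Gzma alone (119.1, 97.41 and 103.1 TPM). In the vehicle libraries Gzma stood at 124.7, 130.1 and 124.3 TPM. Between groups, the sum lay wholly lower with blebbistatin, while Klrd1 lay wholly higher. Apart from Gzma, 6 of 7 defining markers had a higher mean with blebbistatin, and Klra4 a lower one. Of all tested genes, 55.1% had a log2 fold change above 0. Of the 7 only Fcgr3 reached the level of the test, so that share is not a like measure for the others. Among the 10 tested markers of the wider NK list, 4 log2 fold changes were above 0 and 6 below, with a median of -0.10. Ncr1, the NKp46 receptor, stood at 0.591, 0.281 and 0.472 TPM with blebbistatin, against 0.151, 0.259 and 0.142 TPM with vehicle. Itga2, an integrin chain of NK cells, chosen after its values were seen, stood at 0.894, 0.816 and 1.29 TPM with blebbistatin, against 0.445, 0.527 and 0.687 TPM with vehicle. In both genes all blebbistatin values were above all vehicle values, at a level too low for the test. The part of NK cells in the receptor and adaptor values was not tested. Markers of NKT, MAIT and gamma delta T cells had 5 tested, 0 passing, and sums of 202 to 244 TPM with blebbistatin and 183 to 205 TPM with vehicle. All 5 log2 fold changes were above 0, beside 55.1% of all tested genes, with a median of 0.26. Trdc and Tcrg-C2 had all blebbistatin values above vehicle, as had 18.0% of all tested genes, and the other tested markers overlapped. The part of such T cells in the receptor and adaptor values was not tested. The markers of the labelled cell type were abundant: Cd8a stood at 429 ± 3.49 TPM with blebbistatin and 412 ± 3.01 TPM with vehicle, and Cd3e at 302 ± 9.21 TPM with blebbistatin and 315 ± 25.4 TPM with vehicle (SD, n = 3 each).

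Markers of other cell types were detected as well. Platelet and erythroid markers summed to 142 to 158 TPM with blebbistatin and 64.8 to 74.8 TPM with vehicle, and 5 of 9 tested rose, namely Ppbp, Pf4, Itgb3, Treml1 and Itga2b, beside 1.40% of all tested genes. B cell markers summed to 651 to 746 TPM with blebbistatin and 621 to 643 TPM with vehicle, and 2 of 7 tested rose, H2-Eb1 and Igkc, beside the same 1.40%. Neutrophil and mast cell markers and CD4 T cell markers had 4 tested each, and 0 passed. Among 12 CD8 T cell markers Thy1 fell by 0.28 (adjusted p = 0.038 by limma) and 0 rose. The part of these cells in the receptor and adaptor values was not tested. Across all lists 14 genes passed with all libraries. Of these, 0 passed without blebbistatin 3, 5 without blebbistatin 1, 2 without vehicle 1 (Itgb3 and Ppbp), and Ppbp alone without vehicle 2 or without vehicle 3. All 14 passed without blebbistatin 2, and 0 with a replicate block. With no minimum level 3 passed (Pf4, Ppbp and Tcf7), and 10 passed without the trend and 10 under quantile normalization. The length and GC correction left 11, without Thy1, Zeb2 and Zfp683. Median-ratio scaling left 12, without Vav3 and Itga2b, and a pseudocount of 5 left 13, without Vav3.

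The genes whose profile over the 6 libraries was most like that of Klrd1 were Trim12c, Rb1 and Btla, out of 9371 genes whose mean reached 5 TPM. Their root mean square differences from Klrd1 on the log2(TPM + 1) scale were 0.03 for each, after centring on vehicle. Like Klrd1, all 3 were highest in blebbistatin 1 and lowest among the treated libraries in blebbistatin 2, and 0 of them passed the test. They were picked for likeness over these same libraries, so the shared order follows from the choice.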

How the data were processed

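Total RNA of activated CD8+ T cells from mouse spleen was sequenced with a kit that does not mark strand, per the labels' protocols. HISAT2 2.1.0, StringTie 1.3.4, DESeq2 1.22.2 and build mm10 are named in the submitters' processing notes, with no role or order. Deposited TPM values total 1000000 per library. FPKM as deposited is proportional to TPM within a library. Coverage, also deposited, is the average read depth of a gene and is not normalized. Weakly covered genes most often held 300 aligned bases, read here as 1 fragment, which gives 18500000 to 19900000 fragments a library. Fragment numbers cover counting error only.

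Genes whose mean reached 1 TPM were tested on log2(TPM + 1) with limma 3.58.1 in R 4.3.3, using its trend option, and p-values were adjusted by Benjamini-Hochberg with a threshold of 0.05. The pseudocount was 1. Ratios were tested by exact permutation. Alternatives covered the pseudocount, minimum level, scaling, FPKM, limma options, a replicate block, a length and GC correction, protein-coding genes and leaving out each library; scaled coverage was added after the data were seen. On simulated data the test recovered 62 of 100 genes changed 1.5-fold and 82 of 100 changed 2-fold, with 6 false calls. Changes were placed only in genes whose mean reached 5 TPM, so the check does not cover weaker genes or smaller changes. GENCODE annotation of GRCm38 matched 99.1% of gene identifiers. Figures used matplotlib 3.10.9.

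The members and lists were chosen with earlier results of these data known. Named genes are the members, up to 5 passing genes of each list or otherwise its most abundant tested gene, a fixed set of 10 marker and signalling genes, and the 3 genes most like the most abundant receptor. Any other gene in the text was picked with its values in view.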

Additional observations from a re-analysis of the deposited data

How the results depend on the processing

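The number of genes that passed was 244. It was 49 with no minimum level, 160 without the trend, 0 with a replicate block and 437 after the length and GC correction, where 264 were higher and 173 lower, against 187 and 57. Leaving out each library gave 3 to 1090 genes, the highest without blebbistatin 2, where 496 were higher and 594 lower. With the replicate block, 2628 genes had an unadjusted p under 0.05 by limma. Same-numbered libraries did not deviate together (correlations 0.011, -0.037 and -0.034), which cannot show whether the samples were paired. The labels do not say what the replicate numbers mark, and the main test took the samples as unpaired. Members that passed numbered 0, except 1 (Klrd1) without blebbistatin 2. The sign turned after the length and GC correction for Klrk1 (-0.0478), Klre1 (-0.0045), Il2ra (-0.0823) and Tbx21 (0.0214). Under median-ratio scaling the log2 fold change of Fcer1g was -0.0138 and the log2 fold change of Il2ra -0.0138, and under quantile normalization Fcer1g was at -0.0412. Leaving out each library, the log2 fold change of Fcer1g ran from -0.0090 to 0.0343, the log2 fold change of H2-T23 from -0.1667 to 0.0287, the log2 fold change of Il2ra from -0.0523 to 0.0826, the log2 fold change of Klre1 from -0.0101 to 0.1950 and the log2 fold change of Mcpt8 from -0.1962 to 0.0082. The cause was not tested. Klrg1, Klrb1c, Tyrobp and Klre1 rest on few fragments, and depth limits these most.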
